A study of Mus musculus with 4 samples.

Results

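The 8 genes described here are the heme oxygenases Hmox1 and Hmox2, the antioxidant enzymes and their helpers Sod2, Ccs, Cat and Gpx8, the oxidant-producing enzyme Nox4, and Mt1a. They were chosen by name, with earlier results of these data known, and are 8 of the 84 genes on a mouse nephrotoxicity RT-PCR array. The array was run on total RNA of MCT cells, an epithelial line of the mouse kidney that is labelled as convoluted tubule and was grown in DMEM with 10% FBS. There was 1 sample for each of 4 conditions. The control was left untreated. The other samples received 10 μg/ml of the calcineurin inhibitor cyclosporine A (CsA), 10 μM of SB203580, which inhibits p38 MAPK, or 1 μM of 11R, which is 11R-VIVIT, a cell-permeable peptide that inhibits NFAT. For these doses the general methods state an exposure of 24 h, and no vehicle is named for the control. All samples come from the same cell line, which serves as a model of tubule epithelium without the other cells of the kidney.

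Cells make superoxide and hydrogen peroxide continuously, in mitochondria and through NADPH oxidases. Superoxide dismutases turn superoxide into hydrogen peroxide, and catalase and peroxidases remove the peroxide. Heme oxygenases break down heme, which is itself an oxidant when free, into biliverdin, carbon monoxide and iron. In the kidney tubule, Hmox1 is a stress-inducible enzyme known for protecting the cells in acute injury, and Nox4 is the NADPH oxidase best known there.

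The measurement is the Ct, that is the cycle of the PCR in which fluorescence passes a set threshold, so that a Ct lower by 1 cycle stands for up to 2 times more template. Levels are given on a log2 scale relative to Actb (beta-actin), as the Ct of Actb minus the Ct of the gene in the same sample, and a log2 change is the level in treated cells minus that in control cells. Assays of different genes amplify differently, so levels were compared between samples and not between genes. The Ct of the 8 genes lay between 16.96 and 32.15, below the limit of 35 at which a gene was treated as not detected, so each of the 24 changes is measured and none is a bound. With 1 sample per condition, no value has an error and no test was made. No difference between conditions, neighbouring in an order of levels or not, can be set against the spread between samples. The number of samples limits the precision. The Ct of Actb was between 17.81 and 18.13 in the 4 samples. Of the genes that mark the labelled tissue, Slc22a6, the organic anion transporter of the proximal tubule, was detected late in all 4 samples, with a Ct between 32.06 and 34.08. Since RNA was taken from whole cultures, fewer cells with a transcript and less transcript per cell cannot be told apart.

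Genes 2-fold or more above control (1 on the log2 scale) were counted as raised, and those as far below it as lowered. With CsA, 0 of the 8 genes were raised, where 20.0% of the 80 array genes with a value were, and 2 were lowered (Hmox1 and Gpx8), where 16.2% were. With SB203580, 1 was raised (Nox4), against 15.2% of 79 array genes, and 2 were lowered (Hmox1 and Sod2), against 8.86%. With 11R, 1 was raised (Mt1a), against 5.26% of 76 array genes, and 0 were lowered, against 3.95%. A single gene of the 8 makes up 12.5%, so these counts are too small to set the list apart from the array. The median log2 change of the 8 genes was -0.51 under CsA, -0.01 under SB203580 and -0.10 under 11R. Over all array genes with a value it was 0.15, 0.27 and -0.02, in the same order. The 3 treatments were compared with the same control sample, so an error in that sample would enter all of them.

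**Figure D1:**
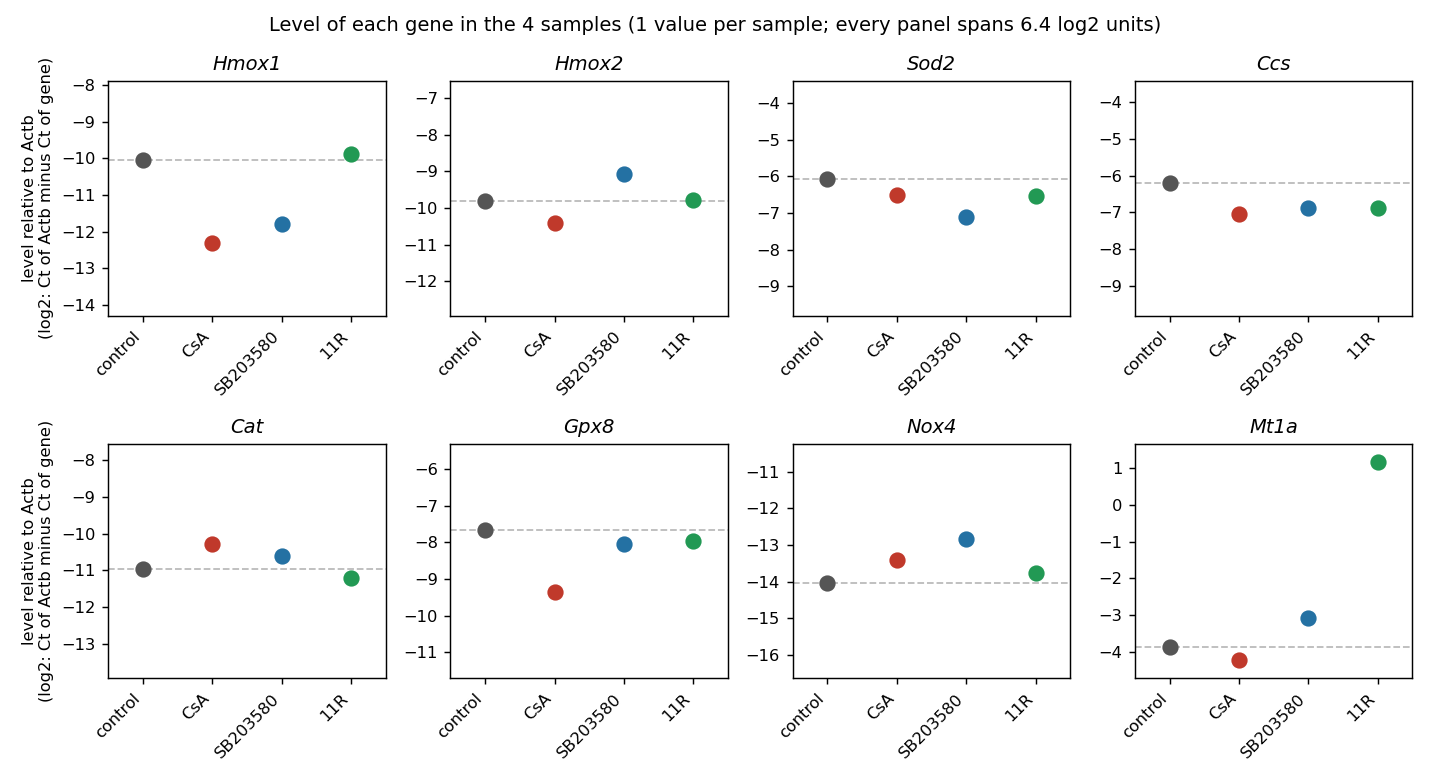
Level of each of the 8 genes relative to Actb (y axis, log2, Ct of Actb minus Ct of the gene) in the control, CsA, SB203580 and 11R samples (x axis). Each point is the only value of its sample, the dashed line marks the control level, and every panel spans the same number of log2 units. Hmox1 is lowest with CsA (-12.30) and SB203580 (-11.80), Gpx8 with CsA (-9.36), and Mt1a stands highest with 11R (1.17).

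Hmox1, the inducible heme oxygenase, was the member lowered by both CsA and SB203580. Its Ct was 28.17 in control cells, 30.14 under CsA, 29.61 under SB203580 and 28.02 under 11R. The CsA and SB203580 samples were therefore late and the control and 11R samples early. Relative to Actb, Hmox1 was 4.73-fold lower with CsA (log2 change -2.24) and 3.34-fold lower with SB203580 (-1.74), while 11R left it within 1.12-fold of control (0.16). The order of its levels was 11R, control, SB203580 and CsA, with gaps of 0.16, 1.74 and 0.50 on the log2 scale. The change with CsA was the second lowest of the 80 array genes with a value, bounds included, and that with SB203580 was the lowest of 79. Both stayed past 2-fold under every reference and setting tried, between -2.74 and -1.97 with CsA and between -1.91 and -1.02 with SB203580, the latter end with the median Ct of 39 early genes as the reference.

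Hmox2, the heme oxygenase known as constitutive, did not follow Hmox1. Its Ct was 27.93 in control cells, 28.25 under CsA, 26.87 under SB203580 and 27.90 under 11R, so that SB203580 gave the earliest value and CsA the latest. Relative to Actb the log2 change was -0.60 under CsA, 0.75 under SB203580 and 0.04 under 11R, none of them at 2-fold. The SB203580 sample stood 2.54-fold above the CsA sample, and the control and 11R samples lay between them, 0.04 apart on the log2 scale. The sign of the 11R value is not settled, since it was -0.01 with the mean Ct of 69 genes as the reference. The change with CsA passed 2-fold (-1.10) relative to the median Ct of 69 array genes (those with a Ct below the limit in every sample), and that with SB203580 did so without a reference gene (1.05) and relative to the median Ct of the early genes (1.47).

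The ratio of the heme oxygenases needs no reference gene, because the template amount of a sample enters both Ct values alike if both assays amplify equally. An amplification base of 2 was assumed for both genes, and no other base was tried for ratios. The Ct of Hmox1 minus that of Hmox2 was 0.25 in control cells, 1.89 under CsA, 2.74 under SB203580 and 0.12 under 11R. The ratio of Hmox1 to Hmox2 was thus 3.12-fold lower with CsA (log2 change of the ratio -1.64) and 5.61-fold lower with SB203580 (-2.49), and it was 1.09-fold higher with 11R (0.13). With CsA both transcripts were below control and Hmox1 further below. With SB203580 they lay on opposite sides of control.

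Gpx8, a glutathione peroxidase family member of the endoplasmic reticulum, was lowered by CsA and not by the other treatments. Its Ct was 25.78 in control cells, 27.21 under CsA, 25.85 under SB203580 and 26.09 under 11R, so the CsA sample stood apart from the other 3. Relative to Actb, Gpx8 was 3.24-fold lower with CsA (log2 change -1.70), with -0.38 under SB203580 and -0.29 under 11R. The last values were 0.35 and 0.30 with the median Ct of the early genes as the reference, while the CsA change ranged from -2.20 to -1.42 over all settings. Compared directly, the CsA sample was 2.50-fold below the SB203580 sample and 2.65-fold below the 11R sample. It was the sixth lowest change with CsA. Cell type markers also differed with CsA. The proximal tubule markers Slc22a6 and Havcr1 were lower, with log2 changes of -1.32 and -2.10, and Vim (vimentin), the single mesenchymal marker measured, was higher (2.47). With SB203580 Slc22a6 was at 0.66, Havcr1 at 0.59 and Vim at 0.82. The distal tubule marker Egf was at -1.15 with CsA and -1.45 with SB203580. Calb1 was past the Ct limit of 35 in all samples but the SB203580 sample (34.36). Ccl3, listed as a leukocyte marker, was at -0.19 with CsA and 0.88 with SB203580. All samples hold the same epithelial line, so Ccl3 does not mark leukocytes here. The part of these genes in the values of Hmox1 and Gpx8 was not tested.

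Sod2, the manganese superoxide dismutase of mitochondria, was highest in control cells. Its Ct was 24.20 in control cells, 24.35 under CsA, 24.93 under SB203580 and 24.68 under 11R. The log2 change relative to Actb was -1.04 with SB203580, a 2.06-fold lower level that sits close to the 2-fold threshold, -0.43 with CsA and -0.47 with 11R. The SB203580 change did not reach 2-fold without a reference gene (-0.73), relative to the median Ct of the early genes (-0.31) or with an amplification base of 1.9 (-0.96), and the 11R change was 0.13 with the early genes. The CsA and 11R samples differed by 0.04 on the log2 scale.

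Ccs, the chaperone that delivers copper to the superoxide dismutase Sod1, was also highest in control cells and was lower by a similar amount with each treatment. Its Ct was 24.31 in control cells, 24.90 under CsA, 24.70 under SB203580 and 25.02 under 11R. The log2 change was -0.86 under CsA, -0.70 under SB203580 and -0.69 under 11R, and the 3 treated samples lay within 0.17 of each other. All 3 values use the same control well, whose error cannot be told apart from a difference shared by the treatments. The CsA change was past 2-fold with 4 other references, at -1.36 with the median Ct and -1.06 with the mean Ct of the 69 genes, -1.10 with their median change and -1.06 with the median Ct of the early genes. With the early genes the SB203580 change was 0.03, a setting in which Ccs itself held the median Ct of the SB203580 sample.

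Cat, the catalase of peroxisomes, had a Ct of 29.09 in control cells, 28.13 under CsA, 28.42 under SB203580 and 29.35 under 11R. It was therefore earlier with CsA and SB203580 than in the other samples. Its log2 change relative to Actb was 0.69 with CsA (1.61-fold), 0.36 with SB203580 (1.29-fold) and -0.24 with 11R, the last being 0.35 with the early genes as the reference. None reached 2-fold relative to Actb, and the level with CsA was 1.91-fold above that with 11R. With the early genes, the SB203580 change passed 2-fold (1.09).

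Nox4, which makes hydrogen peroxide, had the latest Ct of the 8 genes, at 32.15 in control cells, 31.25 under CsA, 30.65 under SB203580 and 31.88 under 11R. The control sample was the latest and SB203580 the earliest. Relative to Actb, Nox4 was 1.54-fold above control with CsA (log2 change 0.63), 2.29-fold with SB203580 (1.20) and 1.22-fold with 11R (0.29). The SB203580 change was the seventh highest of 79 array genes and stayed past 2-fold under every setting, between 1.02 and 1.92. The lower end came from a median of changes, and a Ct limit of 32, which cuts off the control value, gave a lower bound of 1.04. The gaps in its order from SB203580 through CsA and 11R to control were 0.57, 0.34 and 0.29 on the log2 scale.

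Other pairs of the 8 genes can also be set against each other without a reference gene, with the same assumption of equal amplification. The ratio of Nox4 to Sod2 was 2.07-fold higher than control under CsA, 4.71-fold under SB203580 and 1.69-fold under 11R. The ratio of Nox4 to Hmox1 was 7.31-fold higher with CsA and 7.66-fold with SB203580, and with 11R it was 1.09-fold higher. Nox4 and Cat kept to each other most closely with CsA, where their ratio differed 1.04-fold from control. With SB203580, the ratio of Nox4 to Cat was 1.78-fold higher. Cat over Gpx8 was 5.23-fold higher under CsA, 1.67-fold under SB203580 and 1.04-fold under 11R.

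**Figure D2:**
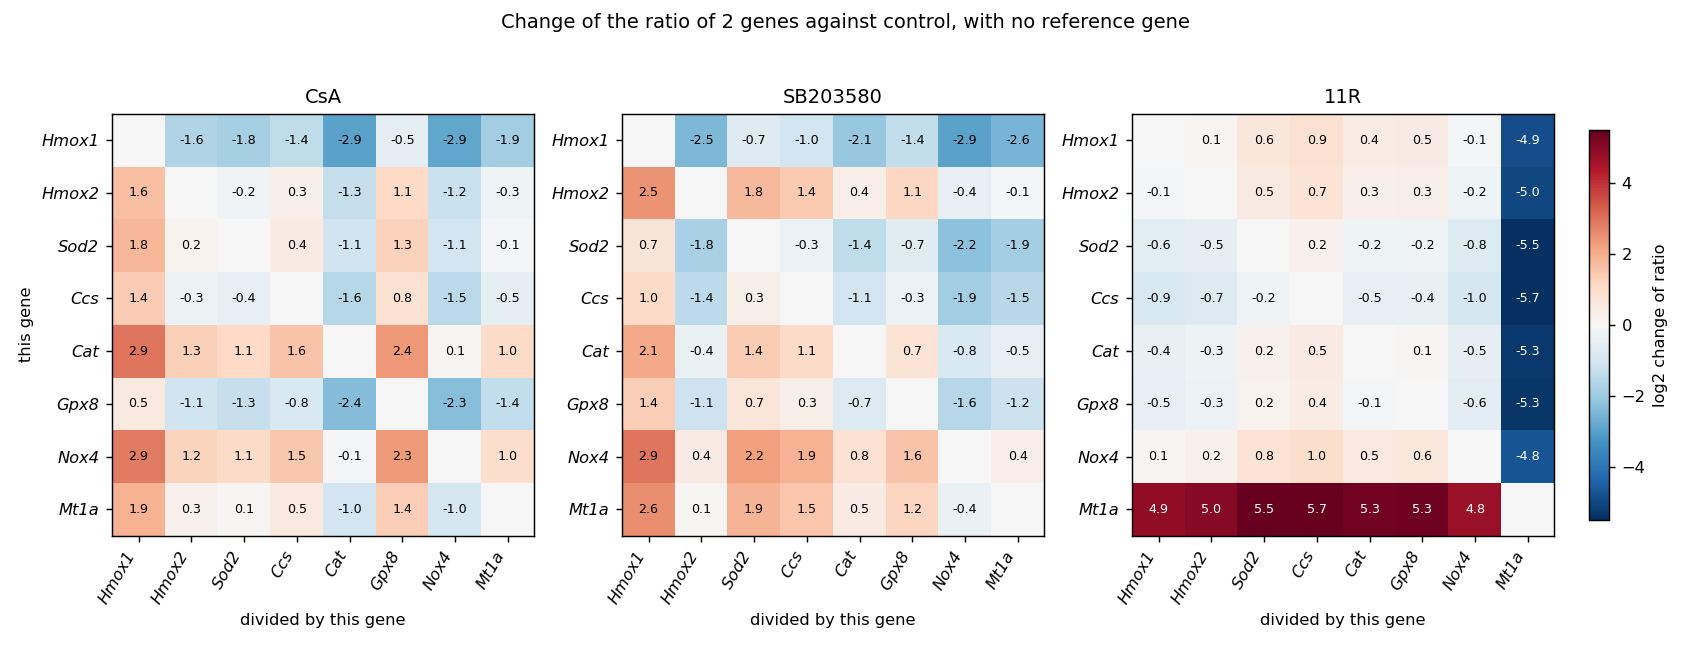
Log2 change, against control, of the ratio of the gene in the row to the gene in the column, for CsA, SB203580 and 11R, computed from Ct values without a reference gene. Red is a higher ratio and blue a lower one. The Hmox1 row is blue throughout for CsA and SB203580, including -2.93 against Cat with CsA and -2.94 against Nox4 with SB203580, and for 11R the deep colours are in the Mt1a row and column.

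Mt1a had the widest range of the 8 genes, from its level in the 11R sample. Its Ct was 22.00 in control cells, 22.08 under CsA, 20.88 under SB203580 and 16.96 under 11R. The 11R sample stood more than 3 cycles before each of the others. Relative to Actb it was 33.2-fold above control (log2 change 5.05), the highest of the 76 array genes with a value for 11R. The same sample was 18.9-fold above the SB203580 sample and 42.2-fold above the CsA sample, comparisons that do not use the control. The log2 change was 0.81 under SB203580 and -0.35 with CsA, and the SB203580 value passed 2-fold without a reference gene (1.12) and with the early genes (1.54). The ratio of Mt1a to each of the other 7 genes was between 27.2-fold (Nox4) and 53.7-fold (Ccs) above control with 11R. These ratios and comparisons all use the same Mt1a Ct of the 11R sample, so they cannot check that value. Metallothioneins are small proteins rich in cysteine that bind zinc and copper, and the name Mt1a is used for one in other species. In the mouse annotation of RefSeq (GRCm38.p6), however, Mt1a is listed only as a synonym of Polr2k, a subunit of RNA polymerases, while the other 7 symbols match a gene directly. The data give no primer sequence, so which transcript the assay amplifies is not settled.

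**Figure D3:**
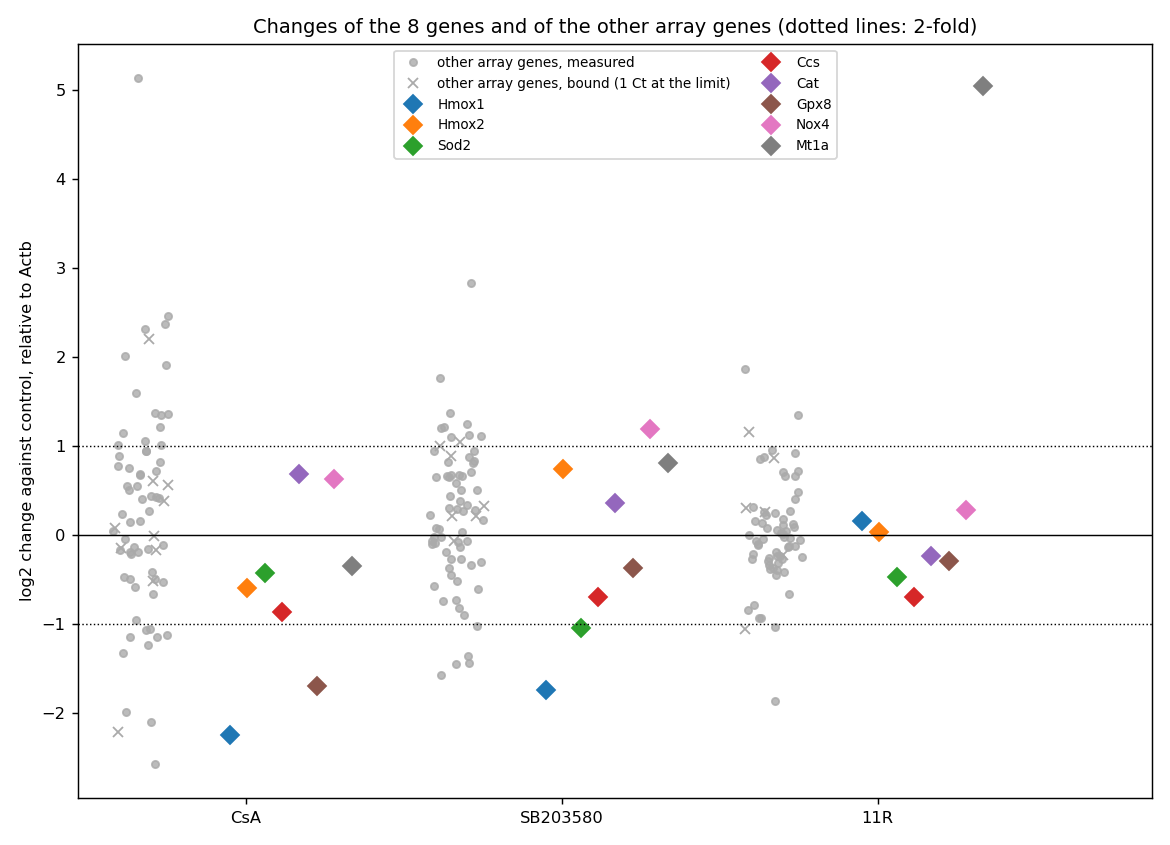
Log2 change against control relative to Actb (y axis) with CsA, SB203580 and 11R (x axis), with the 8 genes as coloured diamonds, the other array genes as grey dots, and grey crosses for genes with a Ct at the limit in 1 of the samples, whose value is a bound. Dotted lines mark 2-fold. With 11R, Mt1a lies at 5.05 and the other 7 genes between -0.69 and 0.29, while Hmox1 is near the lower end with CsA (-2.24) and lowest with SB203580 (-1.74).

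The promoters of Sod2, Gpx8 and Nox4, 3 of the 5 genes past 2-fold in some treatment, are shown because the treatments bear on NFAT and on stress signalling. Those of Hmox1 and Mt1a, the genes with the largest changes, and of Ccs were not analysed here. RefSeq windows (GRCm38.p6) from 250 bases before to 50 after a start site were at hand for 5 of the 8 genes, in 7 windows, 3 of them for Hmox2. A start site need not be the 5′ end of the annotated gene. For Hmox2, Nox4 and Gpx8 the annotated gene begins further upstream, at bases 4726361, 87244430 and 113046430. Their start sites used here therefore lie inside the gene. The 250 bases before the start site follow for Sod2 (chr17:13007589-13007838, plus strand), Gpx8 (chr13:113046389-113046638, minus strand) and Nox4 (chr7:87246399-87246648, plus strand), each from 5′ to 3′ on the strand of the gene. Capitals mark the letters of a motif searched on both strands, GGAAA (the core of NFAT sites) in Sod2 and TGCNCNC in Nox4. TGCNCNC is a looser form of the core of metal response elements, TGCRCNC, where R is A or G. TTTCC is GGAAA read on the other strand, and the matches shown do not overlap.
Sod2: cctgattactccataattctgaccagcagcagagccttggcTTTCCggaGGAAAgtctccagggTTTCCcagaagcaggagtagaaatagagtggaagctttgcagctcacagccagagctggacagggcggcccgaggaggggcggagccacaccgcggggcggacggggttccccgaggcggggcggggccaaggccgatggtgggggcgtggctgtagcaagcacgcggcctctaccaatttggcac
Gpx8: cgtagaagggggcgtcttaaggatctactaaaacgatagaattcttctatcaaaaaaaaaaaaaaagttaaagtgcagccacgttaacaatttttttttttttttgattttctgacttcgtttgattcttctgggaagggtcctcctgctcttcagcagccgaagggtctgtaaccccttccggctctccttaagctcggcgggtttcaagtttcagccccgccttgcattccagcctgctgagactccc
Nox4: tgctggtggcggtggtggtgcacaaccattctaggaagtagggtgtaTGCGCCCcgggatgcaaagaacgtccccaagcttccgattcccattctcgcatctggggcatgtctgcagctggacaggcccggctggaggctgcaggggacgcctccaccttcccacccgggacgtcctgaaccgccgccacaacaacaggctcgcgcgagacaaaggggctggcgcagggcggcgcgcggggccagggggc

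The window of Sod2 held GGAAA at 3 places, at positions -209, -201 and -186 from the start site, and both overlapping Hmox2 windows held the same 2 places. The windows of Gpx8, Nox4 and Cat held none, and 61.4% of the 32841 RefSeq windows of this length hold at least 1. TGCNCNC was found in Nox4, once before the start site (position -203) and once after it, and is present in 51.0% of all windows. The match after the start site reads TGCTCCC on the other strand, with T where TGCRCNC has A or G. The share of windows with the stricter TGCRCNC was not counted. TGACNNNGC, the core of the antioxidant response element, was in none of the 7 windows and is in 12.4% of all windows. TGANTCA, a looser form of the AP-1 site TGASTCA (S is C or G), was also in none. It is in 7.81% of all windows, and the share with the stricter form was not counted. These are matches of letters only. The GC content was 64.3% for Sod2, 62.0% for Cat, 68.3% for Nox4 and 45.3% for Gpx8, beside a median of 52.7% over all windows.

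To describe which patterns over the 4 samples were alike, the level of each gene relative to Actb was centred on its mean, and genes were compared by the root mean square difference. This covers 69 genes detected in all samples and 4 values per gene from the same samples, so it is a description only. The median over all 2346 pairs was 0.71 on the log2 scale. Among the 8 genes, Sod2 and Ccs were the most alike (0.29), followed by Cat and Nox4 (0.37). Hmox1 and Hmox2 differed by 1.11, and the most distant pair was Cat and Mt1a (2.44). Over the array, Hmox1 was closest to the growth factor Egf (0.51) and the chemokine Cxcl1 (0.61). Sod2 was closest to Slc22a5 (0.11), a carnitine transporter, and Oat (0.14), ornithine aminotransferase. Nox4 was closest to Gatm (0.20), an enzyme of creatine synthesis, and Spp1 (0.21), which encodes osteopontin. Gpx8 was closest to Gstk1 (0.21), described in the next paragraph, and Mcm6 (0.30), part of the replicative helicase. The closest to Mt1a was Igfbp3, an insulin-like growth factor binding protein, at 1.59, followed by Hmox1 at 1.75, both further away than the median pair of genes.

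A further 10 array genes come from a list of 60 drawn up for the handling of glutathione, NADPH, aldehydes, oxidants or copper. The list was drawn broadly, and Rgn, among the 10, handles none of these directly. With CsA, 2 of the 10 were raised at least 2-fold (Gstp1 and Aldh1a1), beside 20.0% of all array genes. CsA lowered 1 of them (Gstk1), beside 16.2%, so both counts are near the share of the array. With SB203580 and with 11R, 0 were raised and 0 lowered relative to Actb, while without a reference SB203580 raised 2 (Aldh1a1 and Fmo2). Because Sod3, Nqo1 and Fmo2 had a Ct past the limit in some samples, the median log2 changes are bounds, at least 0.47 with CsA over the 10, and at least 0.39 with SB203580 and at most -0.23 with 11R over the 9 with a value. Gstk1, a glutathione transferase of mitochondria and peroxisomes, had a Ct of 30.58 in control cells, 32.30 under CsA, 30.65 under SB203580 and 31.38 under 11R. Only its CsA change (-1.99) reached 2-fold. Gstp1, a glutathione transferase of the cytosol, had a Ct of 22.41, 20.92, 21.79 and 22.81 in the same order, and a log2 change of 1.21 under CsA, 0.31 under SB203580 and -0.38 under 11R. The transferases thus lay on opposite sides of control with CsA. Aldh1a1, an aldehyde dehydrogenase that makes retinoic acid, had a Ct of 31.13, 29.84, 29.88 and 32.07, and log2 changes of 1.02, 0.95 and -0.93. Its CsA change and that of Gstp1 were under 2-fold relative to the median Ct of the 69 genes, with 0 of the 10 raised. Idh1, which supplies NADPH, was the array gene closest to Cat in pattern (0.08), with log2 changes of 0.82, 0.39 and -0.05. Nqo1, a quinone reductase and a common readout of the antioxidant response, had a Ct below the limit in the CsA sample alone (34.12). The Ct of Nqo1 was 35.71 in control cells, 35.06 under SB203580 and 35.33 under 11R, just past the limit. Its change with CsA was thus at least 0.61, and the other treatments have none. Sod3, the extracellular superoxide dismutase, was not detected in control cells, and its Ct was between 34.71 and 34.89 with the treatments.

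**Figure D4:**
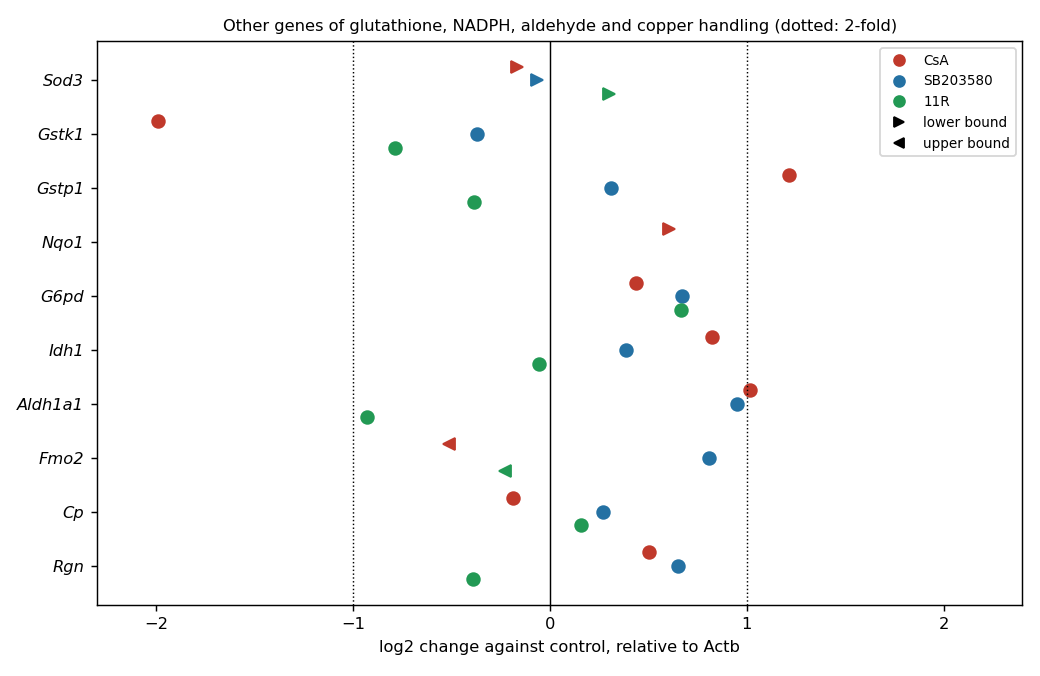
Log2 change against control relative to Actb (x axis) of the 10 other array genes (y axis), with CsA in red, SB203580 in blue and 11R in green. The genes come from a list drawn up for glutathione, NADPH, aldehyde, oxidant and copper handling. Circles are measured changes and triangles bounds from a Ct at the limit, pointing to where the true value lies. With CsA, Gstk1 lies at -1.99 and Gstp1 at 1.21, and none of the blue or green points is beyond 2-fold (dotted lines) relative to Actb.

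The choice of reference moved all genes of a treatment together. Relative to Actb, the median change of the 69 genes was 0.24 under CsA, 0.17 under SB203580 and -0.05 under 11R. A reference made from their median Ct, in which a different gene can hold the median in each sample, lowered every change with CsA by 0.50 and with SB203580 by 0.09. With the 39 genes whose Ct was under 30 in all samples, the median Ct passed from Scd2 in control cells to Idh1, Ccs or Oat in treated cells and raised the changes with SB203580 by 0.73 and with 11R by 0.59, while the median change of the same 39 genes relative to Actb was -0.07 and -0.12. The changes of Hmox1 and Gpx8 with CsA, of Hmox1 and Nox4 under SB203580 and of Mt1a with 11R were past 2-fold under each of the 6 references.

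**Figure D5:**
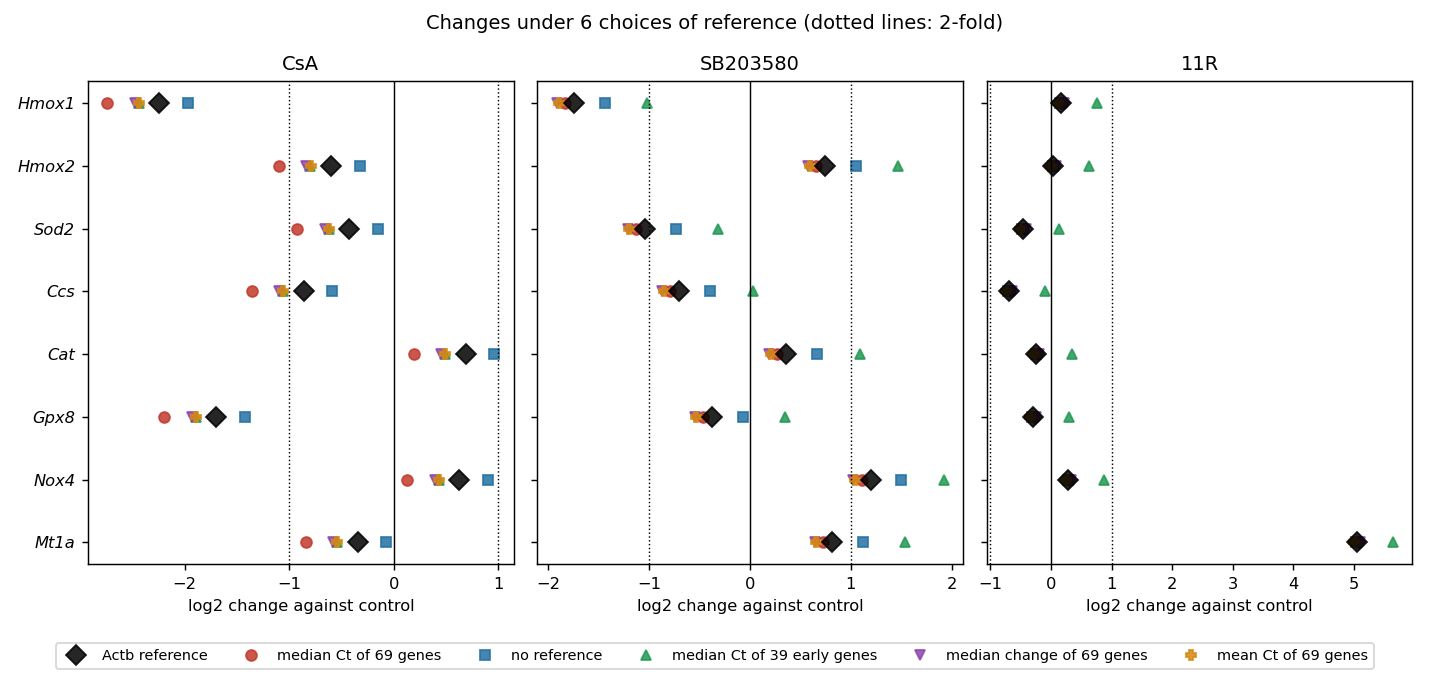
Log2 change against control (x axis) of the 8 genes (y axis) with CsA, SB203580 and 11R under 6 choices of reference, shown by the symbols. Dotted lines mark 2-fold. Hmox1 and Gpx8 with CsA, Hmox1 and Nox4 under SB203580 and Mt1a with 11R lie beyond 2-fold for every symbol, and with the early genes (green triangles) Ccs and Gpx8 under SB203580 and Sod2, Cat and Gpx8 with 11R lie on the other side of 0.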

How the data were processed

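Total RNA was extracted with TRIzol and made into cDNA with the PrimeScript kit, and the array was run with SYBR green (per the labels and the methods). The authors deposited a table of raw Ct values, which carry no normalization and are recorded here as a score per gene and sample, with 1 value each; the instrument, threshold and replicate wells are not given in the sources used here. A second table holds the authors' fold changes and was not used.

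The log2 change is the difference in Ct between control and treated cells after subtraction of Actb, with an amplification base of 2 (the delta-delta Ct method of the study). Its methods refer to the housekeeping genes provided on the array without listing them. Actb was the only reference gene used here, so the normalization of the study was not repeated. A Ct of 35 or later was set to 35, which gives a bound, and no change was computed where neither sample was below it. With 1 sample per condition there is no SD, test or p-value. The alternatives were the median Ct of 69 genes (Ct under 35 in all samples) or of 39 early genes (under 30) as the reference, no reference, Ct limits of 32 or none, an amplification base of 1.9, and thresholds of 1.5-fold and 3-fold. The median change and the mean Ct of the 69 genes were added after the data were seen. The genes and lists were chosen with earlier results of these data known. Named genes are the 8 genes, Actb, the 10 related genes where called, the closest patterns of called genes and tissue markers. Others were named after their values were seen (Idh1, Nqo1, Sod3, Rgn, and genes that held a median). The calculation was tested on simulated data. Python 3.11.15, numpy 2.4.6, pandas 2.3.3 and matplotlib 3.10.9 were used.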

Additional observations from a re-analysis of the deposited data

How the results depend on the processing

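Without replicates, the settings show how far a value depends on the calculation and say nothing of its error. Of 192 recalculated changes of the 8 genes (24 changes under 8 settings), 173 had the same sign and call as reported, and 6 changed sign, 5 of them with the median Ct of the early genes and 1 with the mean Ct of the 69 genes, none of which was past 2-fold. With the median Ct of the 69 genes, 4 genes in place of 2 were lowered by CsA (Hmox2 and Ccs in addition). Without a reference, SB203580 raised 3 genes in place of 1 (Hmox2 and Mt1a in addition) and lowered 1 in place of 2 (Hmox1). With the early genes it raised 4 (Hmox2, Cat and Mt1a in addition) and lowered 1. With an amplification base of 1.9 it lowered 1. At 1.5-fold, CsA raised 2 (Cat and Nox4) and lowered 4, SB203580 raised 3, and 11R lowered 1 (Ccs). At 3-fold, SB203580 raised 0 and lowered 1. The threshold counts follow from the threshold and those of a reference from the shift it gives to all genes. The other counts of the 8 genes stayed within 1.5 times the reported ones, and none of their counts changed with a Ct limit of 32 or none. Of the 10 related genes, CsA raised 0 with the median Ct or the median change of the 69 genes, 1 with their mean Ct and 3 without a reference, in place of 2. CsA lowered 2 of them with the median Ct (Gstk1 and Fmo2) in place of 1, and SB203580 raised 2 without a reference (Aldh1a1 and Fmo2) in place of 0. No paired analysis was possible because each condition has 1 sample.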
